A study of Homo sapiens with 6 samples.

Results

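The 10 genes described here encode the core of the human small RNA silencing machinery: DROSHA, DGCR8, XPO5, DICER1, the 4 Argonautes AGO1, AGO2, AGO3 and AGO4, and the GW182 proteins TNRC6A and TNRC6B. They were chosen by name for their function and not by their values, although earlier results of these data were known. Their symbols were found in GENCODE release 44 for the Ensembl identifiers of the files. They make up 10 of the 60612 genes listed in each of 6 libraries. All 10 had a mean of at least 1 FPKM (fragment counts divided by transcript length and by library size), so every member was tested. The list was drawn up because the sequence that the study's methods give for the control virus is the same as the one given for a control short hairpin, and whether that virus makes a hairpin RNA is not stated.

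Poly(A)-selected RNA was sequenced from HCT116, an established human colorectal carcinoma line, after infection with a lentivirus. LV-NC (3 libraries) was infected with the negative control virus, and LV-SNORA28 (3 libraries) with a virus of the GV235 vector that overexpresses SNORA28, an H/ACA small nucleolar RNA. All 6 libraries therefore came from infected cells, and no uninfected cells or second control virus were analysed here. The methods describe puromycin selection of stably overexpressing cells but do not state whether the sequenced cells were selected, and the sources used here do not say whether the replicates were separate cultures, so the p-values measure only the spread between these libraries.

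As a check of the labels, SNORA28 was listed at no more than 0.92 FPKM in LV-NC and at no less than 13.66 FPKM in LV-SNORA28 (log2 difference 3.41, adjusted p = 0.00228). Of 8 colorectal epithelial markers, 7 were tested and 0 differed at an adjusted p below 0.05 by limma, compared with 8.91% of all genes tested. At an unadjusted p below 0.05 there were also 0 (28.0% of all genes), although KRT18 and CDX2 were lower in every LV-SNORA28 library. Without overlap between the groups, 2 of the 7 were thus lower and 0 higher (8.16% and 27.0% of all genes). EPCAM lay between 96.86 and 115.21 FPKM, whereas the villus gene VIL1 was under the filter. The summed markers of fibroblasts were 3.2 to 4.47 FPKM in LV-NC and 3.17 to 4.08 in LV-SNORA28 and rested on COL1A1, since 3 of 5, COL1A2, DCN and LUM, were listed at 0 throughout. Blood cell markers summed to at most 0.27 FPKM and endothelial markers to at most 0.12 FPKM. The 37 mitochondrial genes took 42.7% to 47.72% of summed FPKM in LV-NC, against 35.88% to 38.26% in LV-SNORA28, and the median log2 difference of all 12076 genes tested was 0.09 (0.06 with each library scaled to an equal sum over nuclear genes).

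In animal cells most microRNAs begin as a hairpin in a longer nuclear transcript. DROSHA, an RNase III enzyme, and its RNA-binding partner DGCR8 form the Microprocessor, which cuts the hairpin out, and XPO5 (exportin 5) carries it to the cytoplasm. There DICER1 removes the loop, and a strand of the resulting duplex is loaded into an Argonaute protein, which pairs through the seed of the small RNA with messages that are to be silenced. TNRC6 proteins of the GW182 family bind the Argonaute and recruit deadenylases. Vector-encoded short hairpins enter the same route, usually at XPO5 and DICER1. In the cells sequenced here the messages of this machinery were measured, whereas mature small RNAs were not, because they carry no poly(A) tail.

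Several microRNA genes lie inside the members on the same strand, and their products are shown because they tie the machinery to its own substrates. MIR3618 and MIR1306 lie in DGCR8, whose message the Microprocessor is known to cut at a hairpin of its own, and MIR3173 lies in DICER1. The sequences are RefSeq entries on GRCh38.p14, printed 5′ to 3′ with the seed, bases 2 to 8, in capitals; no seed was shared among them. The mature RNAs map to chr22:20085797-20085818, chr22:20086072-20086093, chr22:20086112-20086129 (plus strand), chr14:95137961-95137982 and chr14:95137923-95137944 (minus strand), in the order given.
hsa-miR-3618: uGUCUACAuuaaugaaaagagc
hsa-miR-1306-5p: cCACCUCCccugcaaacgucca
hsa-miR-1306-3p: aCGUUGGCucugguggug
hsa-miR-3173-5p: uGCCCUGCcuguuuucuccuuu
hsa-miR-3173-3p: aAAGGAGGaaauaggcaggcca

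The genes of these microRNAs were listed at or near 0. MIR3173 was listed at 0 in all 6 libraries, MIR3618 at no more than 0.11 FPKM, and MIR1306 at 0.13 or 0.14 FPKM in every library. Reads in these short genes cannot be told apart from reads of the host message on the same strand.

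The promoters of 5 members are shown because AGO4, AGO1 and AGO3 are neighbours of which AGO1 alone separated the groups, while DROSHA and DGCR8 kept a similar ratio in all libraries. Each window holds 250 bases before and 50 after the RefSeq start on GRCh38.p14: AGO4 at chr1:35807766-35808065, AGO1 at chr1:35882959-35883258, AGO3 at chr1:35930855-35931154 and DGCR8 at chr22:20079991-20080290 on the plus strand, and DROSHA at chr5:31532044-31532343 on the minus strand. The AGO1 window lies inside the AGO1 gene of GENCODE, which starts upstream of it at chr1:35869808. Which start the FPKM of AGO1 reflects is not known. Capitals mark every match, on either strand, to the CCAAT box, the GC box core GGGCGG, the E-box CACGTG, the TATA box TATAAA, the ETS-type core CCGGAA, the palindrome TGCGCA or the YY1-type core ATGGCG.
AGO4 promoter: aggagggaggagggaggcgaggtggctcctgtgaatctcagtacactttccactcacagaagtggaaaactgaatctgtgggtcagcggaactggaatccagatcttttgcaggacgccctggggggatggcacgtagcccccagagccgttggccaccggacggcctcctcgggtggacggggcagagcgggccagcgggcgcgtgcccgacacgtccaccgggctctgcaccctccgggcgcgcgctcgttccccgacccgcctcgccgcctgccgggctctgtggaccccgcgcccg
AGO1 promoter: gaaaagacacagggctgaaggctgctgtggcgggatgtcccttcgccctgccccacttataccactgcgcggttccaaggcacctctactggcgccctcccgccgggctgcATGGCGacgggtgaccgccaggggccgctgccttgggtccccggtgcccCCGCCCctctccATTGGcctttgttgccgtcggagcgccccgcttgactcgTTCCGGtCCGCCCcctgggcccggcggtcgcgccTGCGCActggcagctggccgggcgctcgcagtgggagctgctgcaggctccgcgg
AGO3 promoter: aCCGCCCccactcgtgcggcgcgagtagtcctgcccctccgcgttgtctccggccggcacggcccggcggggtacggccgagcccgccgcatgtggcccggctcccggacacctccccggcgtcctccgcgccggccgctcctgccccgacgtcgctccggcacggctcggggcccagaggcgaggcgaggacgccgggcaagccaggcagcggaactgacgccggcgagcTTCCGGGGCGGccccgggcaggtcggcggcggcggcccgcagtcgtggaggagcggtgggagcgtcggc
DROSHA promoter: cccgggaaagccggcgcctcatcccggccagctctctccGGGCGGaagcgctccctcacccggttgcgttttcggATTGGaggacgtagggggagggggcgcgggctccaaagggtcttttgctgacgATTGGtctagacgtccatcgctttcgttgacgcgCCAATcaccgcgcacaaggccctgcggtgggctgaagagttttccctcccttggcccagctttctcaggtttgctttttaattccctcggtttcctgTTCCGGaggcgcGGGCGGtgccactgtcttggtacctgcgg
DGCR8 promoter: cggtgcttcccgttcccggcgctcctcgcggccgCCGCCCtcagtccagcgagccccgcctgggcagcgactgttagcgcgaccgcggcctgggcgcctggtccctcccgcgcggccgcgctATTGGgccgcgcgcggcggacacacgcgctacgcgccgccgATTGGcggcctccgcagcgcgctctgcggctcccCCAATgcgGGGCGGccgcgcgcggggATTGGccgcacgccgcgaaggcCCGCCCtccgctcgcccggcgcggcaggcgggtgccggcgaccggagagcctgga

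Promoter windows were found for 9 of the 10 members, all but AGO2. GGGCGG lay in 8 of the 9, compared with 45.0% of all 35116 promoter windows of the same length, and CCAAT lay in 6 of the 9, compared with 34.6%. CCGGAA was found in 5 of the 9 (17.2% of all windows), TGCGCA in 2 (8.24%) and ATGGCG in 1 (10.7%), whereas CACGTG and TATAAA were found in 0 of the 9 (7.26% and 11.5%). The windows of the members were rich in G and C, from 57.3% to 80.3%. The 35116 windows were matched to them in length only, not in expression or in G and C. These contrasts therefore cannot be read as a trait of the members. DGCR8 held 4 CCAAT and 3 GGGCGG matches and DROSHA 3 and 2, while AGO4 held no match to any of the 7 motifs. In AGO3 a GGGCGG match overlapped the CCGGAA match by 1 base. Such matches describe the letters in these windows and not binding sites.

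DROSHA (ENSG00000113360; GRCh38 chromosome 5, 31400494 to 31532196, minus strand) read 7.44, 6.57 and 7.18 FPKM in LV-NC replicates 1 to 3 and 8.92, 8.36 and 8.29 FPKM in LV-SNORA28 replicates 1 to 3. Every LV-SNORA28 library lay above every LV-NC library. The group means were 7.06 ± 0.447 and 8.52 ± 0.345 FPKM (SD, n = 3 each), a log2 difference of 0.24 (95% interval 0.07 to 0.41), and the adjusted p of 0.0835, the lowest of the 10 members, did not pass 0.05. In bulk RNA, fewer cells that make a message and less of it per cell cannot be told apart. Log2 differences are on the log2(FPKM + 1) scale, LV-SNORA28 minus LV-NC, with limma intervals and p-values adjusted over all 12076 genes.

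DGCR8 (ENSG00000128191; chromosome 22, 20080221 to 20111877, plus strand), which positions DROSHA on the hairpin, read 5.77, 4.93 and 5.76 FPKM in LV-NC and 6.76, 6.26 and 6.19 FPKM in LV-SNORA28, again without overlap between the groups. The log2 difference was 0.19 (95% interval -0.00040 to 0.39; adjusted p = 0.179) and did not pass the test. Quantile normalization gave 0.15 for DROSHA (adjusted p = 0.2187) and 0.09 for DGCR8 (adjusted p = 0.4648). DROSHA exceeded DGCR8 by a ratio of 1.29, 1.33 and 1.25 in LV-NC and of 1.32, 1.34 and 1.34 in LV-SNORA28. The ratio was thus nearly the same in all 6 libraries, and the groups overlapped.

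XPO5 (ENSG00000124571; chromosome 6, 43522334 to 43576038, minus strand) was the most abundant member in both groups. It read 9.72, 9.75 and 11.4 FPKM in LV-NC and 12.01, 11.89 and 12.49 FPKM in LV-SNORA28, and all 3 LV-SNORA28 libraries lay above the LV-NC libraries, the nearest pair being 11.4 and 11.89. The means were 10.29 ± 0.961 and 12.13 ± 0.317 FPKM (SD, n = 3 each), with a log2 difference of 0.22 (95% interval 0.03 to 0.41; adjusted p = 0.125) that was 0.13 under quantile normalization (adjusted p = 0.3283). XPO5 overlaps POLR1C on the opposite strand (5.19 to 6.11 FPKM) and a processed pseudogene on its own strand (1.56 to 3.68 FPKM). Whether the counting used strand is not stated, so a share of these reads may be uncertain.

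DICER1 (ENSG00000100697; chromosome 14, 95086228 to 95158010, minus strand) went the other way in its mean. It read 5.48, 3.72 and 5.26 FPKM in LV-NC and 3.61, 3.64 and 4.79 FPKM in LV-SNORA28. LV-NC replicate 2 lay among the LV-SNORA28 libraries, so the groups overlapped, and the log2 difference of -0.21 (95% interval -0.58 to 0.16) had an adjusted p of 0.423. It was -0.13 without LV-NC replicate 1 and -0.35 without LV-NC replicate 2, and -0.32 without LV-SNORA28 replicate 3. DROSHA over DICER1 was 1.36, 1.77 and 1.37 in LV-NC and 2.47, 2.30 and 1.73 in LV-SNORA28, where replicate 3 fell just below the highest LV-NC library. The antisense gene DICER1-AS1 lay between 0.3 and 0.8 FPKM.

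**Figure D1:**
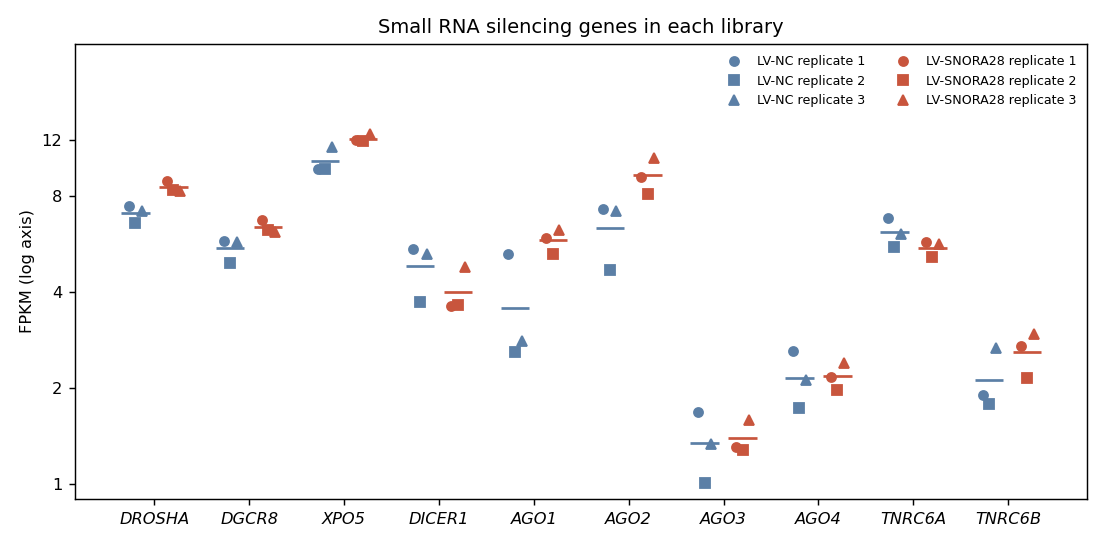
FPKM of the 10 members in each library on a log axis; points are libraries (blue LV-NC, red LV-SNORA28, the shape gives the replicate) and short lines are group means. XPO5 was highest and AGO3 lowest in both groups, and the points of DROSHA, DGCR8, XPO5, AGO1 and AGO2 do not overlap between groups.

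Among the Argonautes, AGO2 (ENSG00000123908; chromosome 8, 140520156 to 140635633, minus strand), the family member known for slicing a perfectly paired target, was the most abundant in every library. It read 7.27, 4.69 and 7.17 FPKM in LV-NC and 9.2, 8.1 and 10.57 FPKM in LV-SNORA28. No overlap was seen, and the means were 6.38 ± 1.46 and 9.29 ± 1.24 FPKM (SD, n = 3 each), a ratio of 1.46. The log2 difference was 0.49 (95% interval 0.09 to 0.90; adjusted p = 0.117), and without LV-NC replicate 2 it was 0.32 (adjusted p = 0.1749).

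AGO1 (ENSG00000092847; chromosome 1, 35869808 to 35930532, plus strand), which represses without efficient slicing, had the largest ratio of means, 1.63. It read 5.26, 2.6 and 2.82 FPKM in LV-NC and 5.92, 5.29 and 6.25 FPKM in LV-SNORA28. LV-NC replicate 1 stood just below the lowest LV-SNORA28 library, whereas the other LV-NC libraries were far lower. The log2 difference was 0.62 (95% interval 0.12 to 1.13; adjusted p = 0.115) with all libraries and 0.88 (adjusted p = 0.01604) without LV-NC replicate 1. AGO1 thus passed or missed the threshold by 1 library.

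AGO3 (ENSG00000126070; chromosome 1, 35930718 to 36072500, plus strand) was the least abundant member. It read 1.68, 1.01 and 1.34 FPKM in LV-NC and 1.31, 1.28 and 1.59 FPKM in LV-SNORA28, with a log2 difference of 0.04 (95% interval -0.27 to 0.34; adjusted p = 0.876). AGO4 (ENSG00000134698; chromosome 1, 35808016 to 35857890, plus strand) read 2.61, 1.73 and 2.13 FPKM in LV-NC and 2.17, 1.97 and 2.4 FPKM in LV-SNORA28, with a log2 difference of 0.02 (95% interval -0.27 to 0.31; adjusted p = 0.941). For both, the LV-SNORA28 libraries lay within the range of LV-NC, and the direction turned below 0 under quantile normalization. The 3 genes stand in tandem, with 11917 bases between AGO4 and AGO1 and 185 bases between AGO1 and AGO3 in GENCODE.

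The shares of AGO3 and AGO4 among the Argonaute messages were more even between replicates than their levels. The 4 Argonautes summed to 16.82, 10.03 and 13.46 FPKM in LV-NC and 18.6, 16.64 and 20.81 FPKM in LV-SNORA28, with overlap between the groups. AGO3 made up 9.99%, 10.1% and 9.96% of the sum in LV-NC and 7.04%, 7.69% and 7.64% in LV-SNORA28. AGO4 made up 15.5%, 17.2% and 15.8% in LV-NC and 11.7%, 11.8% and 11.5% in LV-SNORA28. Both shares were lower in every LV-SNORA28 library than in any LV-NC library, including LV-NC replicate 2. These within-library shares were not tested, and a share can fall because another member of the sum is higher.

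The share of AGO1 was 31.3%, 25.9% and 21.0% in LV-NC and 31.8%, 31.8% and 30.0% in LV-SNORA28, and that of AGO2 was 43.2%, 46.8% and 53.3% in LV-NC and 49.5%, 48.7% and 50.8% in LV-SNORA28. In both cases the groups overlapped, with a wider spread in LV-NC, where the library with the highest AGO1 share had the lowest AGO2 share. AGO1 over AGO3 was 3.13, 2.57 and 2.10 in LV-NC and 4.52, 4.13 and 3.93 in LV-SNORA28. AGO2 over AGO3 was 4.33, 4.64 and 5.35 in LV-NC and 7.02, 6.33 and 6.65 in LV-SNORA28. Both ratios were separated by group, and so were those over AGO4, whereas AGO4 over AGO3 overlapped, from 1.55 to 1.71 in LV-NC and from 1.51 to 1.66 in LV-SNORA28.

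TNRC6A (ENSG00000090905; chromosome 16, 24610209 to 24827632, plus strand), a scaffold between Argonautes and deadenylases, read 6.86, 5.53 and 6.09 FPKM in LV-NC and 5.73, 5.16 and 5.68 FPKM in LV-SNORA28. The groups overlapped, and the log2 difference of -0.13 (95% interval -0.35 to 0.08) had an adjusted p of 0.388; it was -0.06 without LV-NC replicate 1 and -0.23 under quantile normalization. Its paralog TNRC6B (ENSG00000100354; chromosome 22, 40044817 to 40335808, plus strand) read 1.91, 1.78 and 2.67 FPKM in LV-NC and 2.71, 2.15 and 2.95 FPKM in LV-SNORA28. Here too the groups overlapped, at a log2 difference of 0.21 (95% interval -0.12 to 0.55; adjusted p = 0.372), which ran from 0.13 without LV-NC replicate 2 to 0.33 without LV-NC replicate 3. The third paralog, TNRC6C, read 3.03, 2.09 and 2.04 FPKM in LV-NC and 2.77, 2.28 and 2.68 FPKM in LV-SNORA28 (log2 difference 0.09, adjusted p = 0.705), and this direction turned below 0 under quantile normalization.

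Within the sum of the 3 GW182 messages, TNRC6A took 58.1%, 58.8% and 56.4% in LV-NC and 51.1%, 53.8% and 50.2% in LV-SNORA28, lower in every LV-SNORA28 library. TNRC6B took 16.2%, 18.9% and 24.7% in LV-NC and 24.2%, 22.4% and 26.1% in LV-SNORA28, with LV-NC replicate 3 among the LV-SNORA28 libraries. The Argonaute sum over the GW182 sum was 1.43, 1.07 and 1.25 in LV-NC and 1.66, 1.74 and 1.84 in LV-SNORA28. Argonaute messages thus exceeded GW182 messages in all 6 libraries, and the ratio was higher in each LV-SNORA28 library. The values of this ratio were not tested.

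**Figure D2:**
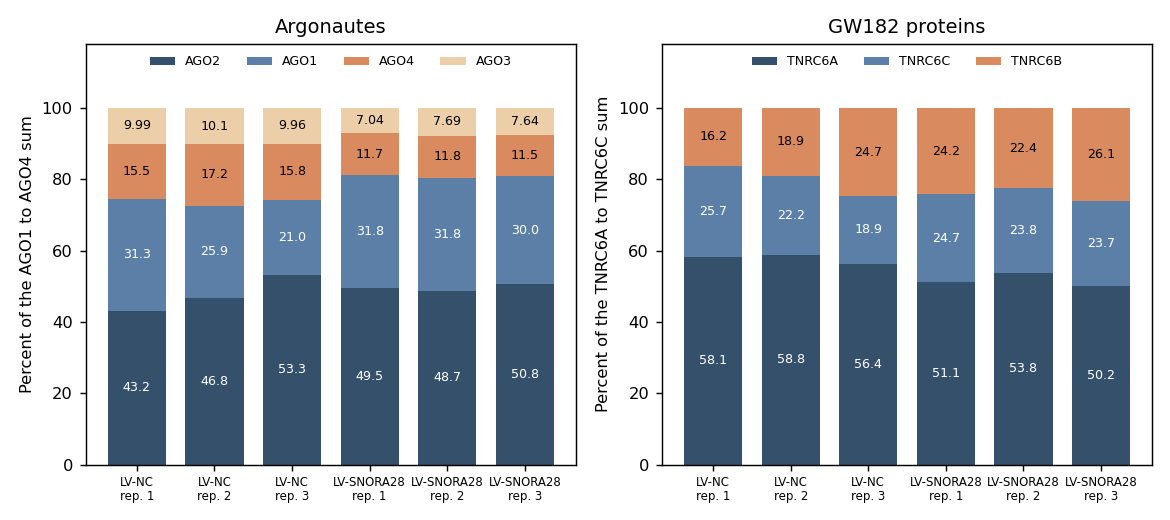
Percent of the summed FPKM taken by each Argonaute (left) and each GW182 gene (right) in each library, as stacked bars. AGO3 and AGO4 took smaller shares in each LV-SNORA28 library (7.04% to 7.69% and 11.5% to 11.8%) than in any LV-NC library (9.96% to 10.1% and 15.5% to 17.2%).

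Across the 10 members, 0 passed an adjusted p of 0.05 by limma, compared with 8.91% of all 12076 genes tested (6.81% higher and 2.10% lower). At an unadjusted p below 0.05 there were 4, AGO1, AGO2, DROSHA and XPO5, all higher in LV-SNORA28; among all genes 28.0% reached that level (22.0% higher and 6.08% lower). The groups did not overlap in 5 members, all of them higher, compared with 35.1% of all genes (27.0% higher and 8.16% lower). At the threshold that the study used, a fold change above 1.5 and an unadjusted p below 0.05, AGO1 was the 1 member that passed, compared with 3.79% of all genes. Here that threshold was applied to limma values on the log2(FPKM + 1) scale. The study does not name the test behind its own calls, so the 2 may differ. Differences above 0 were seen in 8 of 10 members, of which AGO3 and AGO4 turned below 0 under quantile normalization, and in 66.7% of all genes. The median log2 difference was 0.20 for the members and 0.09 for all genes.

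The intervals state how large a difference these libraries leave possible, with 1 FPKM added to each value before the log2. For 6 members the 95% interval held 0. The interval of AGO1 reached 1.13 and that of AGO2 0.90, while those of AGO3 and AGO4 ended at 0.34 and 0.31. The added 1 FPKM compresses the differences of low genes most, so larger fold changes remain possible for AGO3 and AGO4 than these bounds state. With a pseudocount of 0.1 the difference of AGO3 was 0.0696 in place of 0.038. That of AGO4 was 0.029 in place of 0.0178. Because the values are FPKM without read counts, the depth is unknown, and the precision of the low members AGO3, AGO4 and TNRC6B is known only from the spread between libraries.

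**Figure D3:**
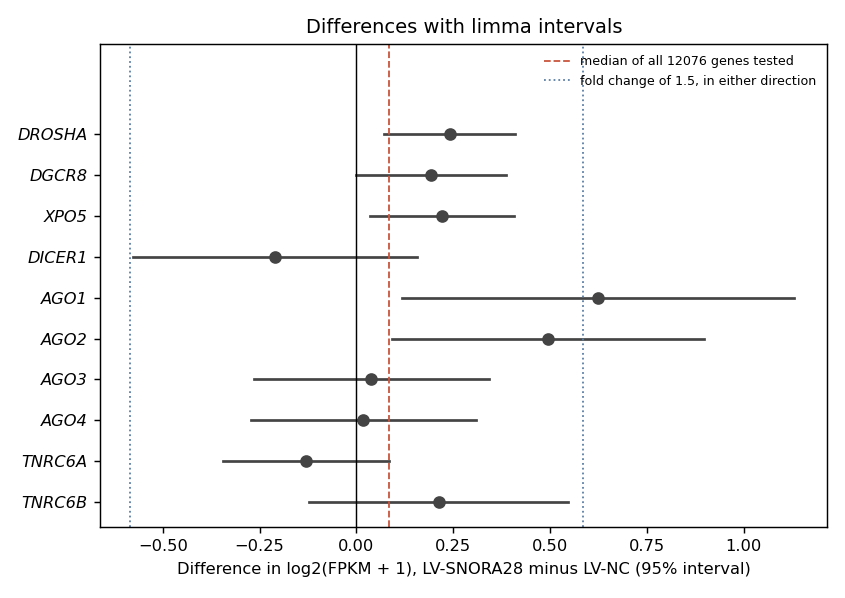
Log2 difference (LV-SNORA28 minus LV-NC, log2(FPKM + 1) scale) of each member with its 95% limma interval; the dashed line is the median of all genes tested (0.09) and the dotted lines mark a fold change of 1.5. DICER1 and TNRC6A lie below 0 and the other 8 members above it, of which AGO3 and AGO4 turned below 0 under quantile normalization, and 6 intervals hold 0.

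By mean level, the order in LV-NC was XPO5, DROSHA, AGO2, TNRC6A, DGCR8, DICER1, AGO1, AGO4, TNRC6B and AGO3, from 10.29 to 1.34 FPKM. Neighbours in this order had separate ranges for XPO5 and DROSHA and for TNRC6B and AGO3 only. In LV-SNORA28 the order was XPO5, AGO2, DROSHA, DGCR8, AGO1, TNRC6A, DICER1, TNRC6B, AGO4 and AGO3, from 12.13 to 1.39 FPKM. AGO2 and DROSHA, DGCR8 and AGO1, AGO1 and TNRC6A, and TNRC6B and AGO4 were neighbours with overlapping ranges there.

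LV-NC replicate 2 held the lowest value of 7 of the 10 members, and LV-NC replicate 1 and LV-SNORA28 replicate 3 each held the highest of 4. LV-NC replicate 2 also had the largest mitochondrial share, 47.72%, and the lowest level of long transcripts: for the 3367 tested genes with a longest transcript of at least 5000 nt, its median log2 deviation from the mean of the 6 libraries was -0.15, compared with -0.02 to 0.10 in the other libraries. Of the members, 9 have a longest transcript of at least 5000 nt. The part of transcript length and of the mitochondrial share in the members' differences was not tested. With a trend on transcript length removed in each library, a step added after the data were seen, AGO2 passed at 0.39 (adjusted p = 0.0448) and AGO1 did not, at 0.52 (adjusted p = 0.0997).

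**Figure D4:**
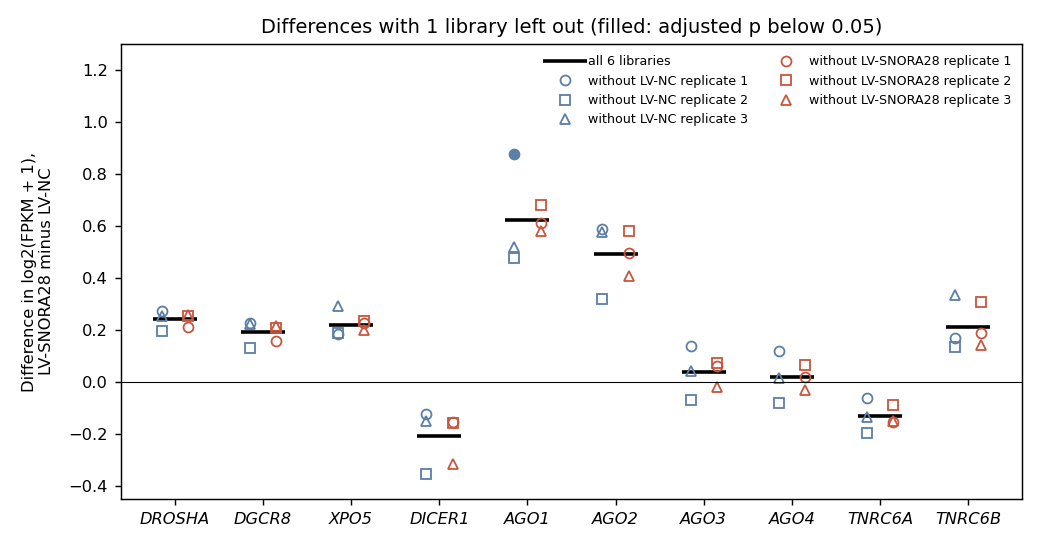
Log2 difference of each member with all 6 libraries (black bar) and with each library left out (open symbols, filled where the adjusted p was below 0.05). AGO1 without LV-NC replicate 1 is the 1 filled point, at 0.88, and the points of AGO3 and AGO4 fall on both sides of 0.

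The genes that work beside the members were read from 4 lists, of which 68 of 69 genes were tested. In these lists 4 genes were called higher and 0 lower (5.88% of those tested, compared with 8.91% of all genes), and 14 higher and 2 lower had an unadjusted p below 0.05 (22.0% and 6.08% of all genes). The median log2 difference was 0.06, below the 0.09 of all genes.

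Of the processing and export partners, 14 of 15 were tested and 0 were called, compared with 8.91% of all genes. At an unadjusted p below 0.05 there were 1 higher and 1 lower (22.0% and 6.08% of all genes), and the median was 0.02. The largest difference was that of RAN, the GTPase that drives export by XPO5. RAN read 34.72, 92.72 and 90.95 FPKM in LV-NC and 107.8, 106.82 and 101.93 FPKM in LV-SNORA28, so that LV-NC replicate 1 stood far below all other libraries (log2 difference 0.66, adjusted p = 0.290; 0.20 without that replicate). RAN has near-identical processed copies, and its reads are uncertain. TARBP2, a DICER1 partner, read 4.34 to 4.7 FPKM in LV-NC and 3.89 to 4.19 FPKM in LV-SNORA28, separate ranges with an adjusted p of 0.272. LIN28B, which blocks let-7 processing, stayed at or below 0.07 FPKM.

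Of 19 genes of Argonaute loading and small RNA turnover, 3 were called higher and 0 lower (15.8% of those tested, compared with 8.91% of all genes), with a median of 0.14. HSP90AA1, the inducible HSP90 chaperone that opens Argonaute for loading, read 410.99, 442.9 and 399.13 FPKM in LV-NC and 635, 728.04 and 693.56 FPKM in LV-SNORA28. It rose by 0.71 (95% interval 0.53 to 0.89; adjusted p = 0.00634), more than the spread between replicates, although HSP90 genes have close copies that share reads. Its paralog HSP90AB1, with a higher mean over the libraries (1465.48 against 551.60 FPKM), rose by 0.33 and was not called (adjusted p = 0.0555 by limma). FKBP4, an HSP90 co-chaperone, read 32.76, 37.07 and 39.34 FPKM in LV-NC and 51.9, 53.04 and 54.43 FPKM in LV-SNORA28 and rose by 0.54 (adjusted p = 0.0136), but leaving out LV-SNORA28 replicate 2 gave an adjusted p of 0.0585 and leaving out LV-SNORA28 replicate 3 one of 0.0593. SND1 (Tudor-SN), a nuclease found with silencing complexes, read 21.48, 21.49 and 22.76 FPKM in LV-NC and 34.37, 32.93 and 33.22 FPKM in LV-SNORA28 and rose by 0.59 (adjusted p = 0.00433). The 3 called genes all have broader roles in protein folding or RNA metabolism.

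Of 18 genes of deadenylation, 1 was called higher and 0 lower (5.56% of those tested, compared with 8.91% of all genes), with a median of 0.10. That gene was CNOT11, a subunit of the CCR4-NOT deadenylase, at 15.26, 15.23 and 15.36 FPKM in LV-NC and 22.7, 24.08 and 26.24 FPKM in LV-SNORA28 (log2 difference 0.64, adjusted p = 0.00634). Of 17 genes of repression and decapping, 0 were called, compared with 8.91% of all genes. At an unadjusted p below 0.05 there were 2 higher and 0 lower (22.0% and 6.08% of all genes), and the median was 0.06. NBDY, a micropeptide of the decapping complex, had the largest difference. It read 6.83, 5.54 and 6.81 FPKM in LV-NC and 8.35, 9.8 and 14.58 FPKM in LV-SNORA28 (log2 difference 0.66, adjusted p = 0.0826). The germline branch was near 0: of its 9 genes none passed the filter, LIN28A reached at most 0.34 FPKM, and PIWIL1 was listed at 0 in all libraries.

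**Figure D5:**
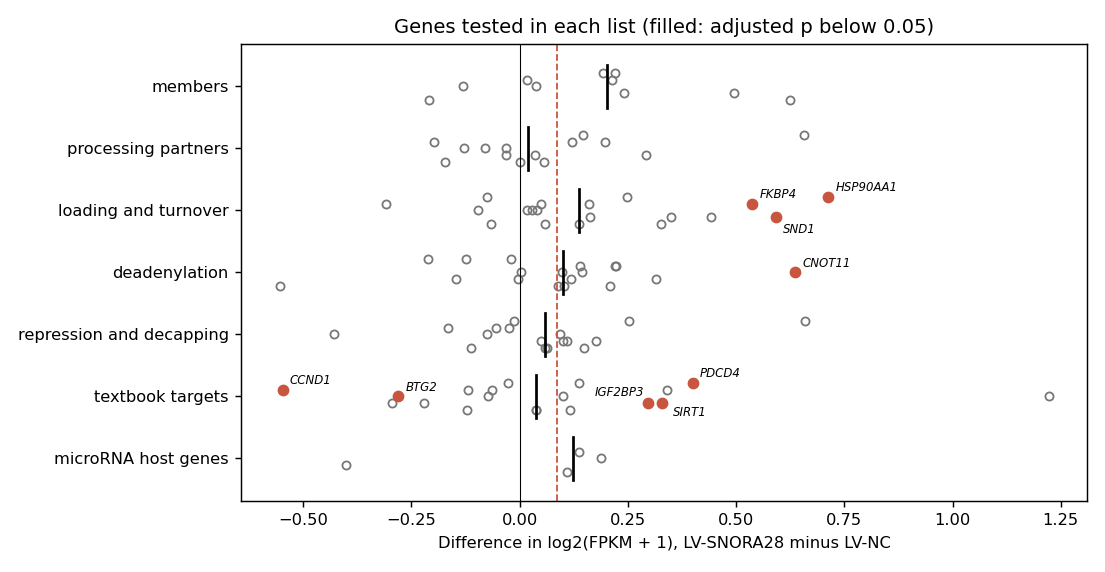
Log2 difference (LV-SNORA28 minus LV-NC) of each tested gene in the 10 members and 6 lists; filled red points have an adjusted p below 0.05, black ticks are list medians and the dashed line is the median of all genes. No member is filled, whereas HSP90AA1, SND1, FKBP4 and CNOT11 are filled to the right, near 0.54 to 0.71. Among the textbook targets, PDCD4, SIRT1 and IGF2BP3 are filled to the right (0.30 to 0.40), and CCND1 (-0.55) and BTG2 (-0.28) to the left.

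The messages of 24 textbook targets of let-7, miR-21, miR-200, miR-17, miR-34 and miR-16 were also read, of which 19 were tested. The targets moved in both directions: 3 were called higher and 2 lower (26.3% of those tested, compared with 8.91% of all genes), and the median was 0.04. CCND1 (cyclin D1), a target of miR-16 and miR-34, read 175.78, 176.95 and 190.37 FPKM in LV-NC and 122.47, 124.29 and 123.61 FPKM in LV-SNORA28. It fell by 0.55 on the log2 scale (adjusted p = 0.00583) and remained called under all 14 alternatives. Many of these targets are also controlled by other routes, and the count says nothing of silencing.

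The other 4 calls were smaller. PDCD4, a translation inhibitor and target of miR-21, read 9.1, 7.79 and 7.6 FPKM in LV-NC and 11.32, 10.07 and 11.85 FPKM in LV-SNORA28 (log2 difference 0.40, adjusted p = 0.0483). SIRT1, a deacetylase and target of miR-34, rose by 0.33 (adjusted p = 0.0459), and IGF2BP3, an RNA-binding target of let-7, rose by 0.30 (adjusted p = 0.0452). BTG2, an antiproliferative target of miR-21, read 22.06, 21.56 and 21.22 FPKM in LV-NC and 18.16, 17.31 and 17.37 FPKM in LV-SNORA28 and fell by 0.28 (adjusted p = 0.0305). The 2 tested targets of miR-21 named here thus moved in opposite directions. With each library left out in turn, the adjusted p ran from 0.0465 to 0.149 for PDCD4, which kept its call only without LV-NC replicate 1, and SIRT1 (0.0741 to 0.146), IGF2BP3 (0.0516 to 0.1499) and BTG2 (0.0661 to 0.1135) lost theirs whichever library was left out. All 3 higher calls were also lost under quantile normalization, with equal nuclear sums, with no filter and with no trend.

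Of 86 long RNAs that host microRNAs, 4 were tested and 31 were listed at 0 in every library. Of the 4 tested, 0 were called, compared with 8.91% of all genes. At an unadjusted p below 0.05 there were 0 higher and 1 lower (22.0% and 6.08% of all genes), and 4 genes are too few to read these counts. MIR200CHG, the host of miR-200c and miR-141, which hold down ZEB transcription factors in epithelia, read 5.6, 4.7 and 6.32 FPKM in LV-NC and 4.41, 3.05 and 4.45 FPKM in LV-SNORA28. Its groups did not overlap, and the log2 difference of -0.40 had an adjusted p of 0.140; it was -0.26 without LV-SNORA28 replicate 2. MIR222HG, the host of miR-221 and miR-222, read 7.37, 8.6 and 5.79 FPKM in LV-NC and 8.7, 8.22 and 8.01 FPKM in LV-SNORA28 (log2 difference 0.19, adjusted p = 0.391). The products of these hosts are shown because their hosts were the most abundant of the 86. RefSeq places them, in the order given, at chr12:6963742-6963764 and chr12:6964155-6964176 (plus strand) and chrX:45746180-45746202 and chrX:45747036-45747056 (minus strand) of GRCh38.p14; capitals mark the seed, which miR-221 and miR-222 share.
hsa-miR-200c-3p: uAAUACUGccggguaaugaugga
hsa-miR-141-3p: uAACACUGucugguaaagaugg
hsa-miR-221-3p: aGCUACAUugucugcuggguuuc
hsa-miR-222-3p: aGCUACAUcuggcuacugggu

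The MIR221 gene read 26.77, 23.18 and 22.63 FPKM in LV-NC and 29.09, 27.77 and 26.74 FPKM in LV-SNORA28, ranges that overlapped narrowly, and MIR222 at no more than 0.17 FPKM. MIR141 reached at most 0.53 FPKM, and MIR200C was above 0 in 1 library only. These are fragments of long or precursor transcripts and give no level of the mature RNAs.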

How the data were processed

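Poly(A) RNA of 6 HCT116 libraries (3 LV-NC, 3 LV-SNORA28, grouped by title) was read as paired ends from dUTP-stranded libraries, per the labels. The authors deposited 1 table per library of FPKM, a level per transcript length and library size. The submitters' processing notes name cutadapt 1.9, HISAT2 2.2.1, StringTie 2.1.6, DESeq2, edgeR and hg38 without roles; annotation release, filters, strand setting and mapped totals are not given in the sources used here. Depth is therefore unknown, and no counting interval was attached. FPKM sums ran from 306048 to 374676, and 11664 to 12259 genes per library had at least 1 FPKM. Any 2 libraries differed in at least 26342 genes.

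Symbols were found for 60401 of 60612 identifiers in GENCODE release 44 on GRCh38. A filter kept the 12076 genes that averaged 1 FPKM or more over the 6 libraries, and their log2(FPKM + 1) values were fitted with limma 3.58.1 in R 4.3.3 (lmFit, eBayes with trend). Two-sided p-values were corrected over all genes tested (Benjamini-Hochberg). Shares and ratios within a library were computed in Python 3.11.15 with no test. A fold change on this scale understates that of low genes.

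The members, gene lists and tests were chosen with earlier results of these data known. Every member was named; in the other lists the genes with an adjusted p below 0.05 (at most 6 in each direction) were named or, where fewer than 2 passed, also the gene with the largest difference; TNRC6C, LIN28B, the germline list and microRNA genes inside members were named by design. TARBP2, HSP90AB1 and the values of KRT18, CDX2, MIR221, MIR222, MIR222HG, MIR141 and MIR200C were added after they were seen. Alternatives were a pseudocount of 0.1, no filter or a minimum of 5 FPKM, quantile normalization, equal nuclear sums, no trend, the replicate block, geometric centring of the Argonaute shares, each library left out and, added later, a removed length trend.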

Additional observations from a re-analysis of the deposited data

How the results depend on the processing

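The count of members with an adjusted p below 0.05 was 0 with all libraries and under each alternative but 2: it was 1 (AGO1) without LV-NC replicate 1, so that leaving out each library gave 0 to 1, and 1 (AGO2) with the length trend removed, which was chosen after seeing the data. At the threshold of the study the count of 1 (AGO1) became 0 with a minimum of 5 FPKM, where AGO1 was not tested, 0 under quantile normalization and 0 with the length trend removed, and ran from 0 to 2 with each library left out; it was 2 without LV-NC replicate 1 and 0 without LV-NC replicate 2, LV-NC replicate 3, LV-SNORA28 replicate 1 or LV-SNORA28 replicate 3. The other pathway genes gave 3 to 6 calls in place of 4. The difference of AGO3 turned to -0.04 under quantile normalization and -0.0585 with the length trend removed, and ran from -0.0677 to 0.1398 with each library left out; it was -0.0202 without LV-SNORA28 replicate 3. That of AGO4 turned to -0.0678, -0.0855 and, at equal nuclear sums, -0.0011, and ran from -0.0823 to 0.1193; it was -0.0315 without LV-SNORA28 replicate 3. TNRC6C turned to -0.0023 under quantile normalization and -0.0129 with the length trend removed. With the length trend removed DROSHA was 0.1411, DGCR8 0.0939, XPO5 0.1213, TNRC6B 0.115 and TNRC6A -0.233, each over 1.5 times from its value. For these changes the cause was not tested. The replicate block left 0 members and 4 other pathway genes called and 1 member at the threshold of the study. Over all genes tested, deviations of libraries with the same replicate number correlated at -0.04, 0.09 and 0.01. Whether such libraries shared a batch is not stated in the sources used here. Under the block PDCD4 (adjusted p = 0.0747), SIRT1 (0.0648), IGF2BP3 (0.0858) and BTG2 (0.0630) lost their calls; over 14 alternatives PDCD4 was called in 3, SIRT1 in 2, IGF2BP3 in 2 and BTG2 in 6. Of the values for single genes outside the members, 133 kept their side of the threshold, 45 lost it and 2 reversed over all alternatives. Quantile normalization moved the median of all genes from 0.09 to -0.0013 and the calls from 822 higher and 254 lower to 451 higher and 375 lower. With geometric centring in place of the share of the sum, the log2 group difference was 0.4183 in place of 0.2798 for AGO1, 0.1998 in place of 0.0613 for AGO2, -0.2863 in place of -0.4248 for AGO3 and -0.3318 in place of -0.4703 for AGO4.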

Other observations

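Among the textbook targets, CDKN1A, the cell cycle inhibitor p21 and a target of the miR-17 family, had the largest difference of those tested and is named after its values were seen. It read 43.96, 41.54 and 42.01 FPKM in LV-NC and 146.22, 152.71 and 45.2 FPKM in LV-SNORA28, so that LV-SNORA28 replicate 3 stood near the LV-NC libraries (log2 difference 1.22, adjusted p = 0.134 by limma).

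TSN (translin), whose complex trims small RNA passenger strands, also split libraries within both groups, and is named for that reason after its values were seen. It read 4.58, 7.46 and 17.61 FPKM in LV-NC and 21.06, 6.12 and 6.8 FPKM in LV-SNORA28 (log2 difference 0.16, adjusted p = 0.885 by limma), so that 1 library of each group stood far above the others.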
